A study of Mus musculus with 53 samples.

Results

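The lung tumours described here carried a lentiviral vector against P53, the label under which the table lists mouse Trp53. They were all rows listed under that target in mice that had received the pool of vectors and were examined after 15 weeks of tumour growth. There were 32660 such tumours among the 335123 tumours of these 35 mice, 9.75% of the total, and P53 was 1 of 11 targets beside inert sgRNAs. Each tumour was set against inert tumours of the same mouse, which carried the control sgRNAs of the pool.

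p53 is a transcription factor that is stabilised after DNA damage or oncogene signalling and then drives genes for cell cycle arrest, senescence or cell death. It is lost in many human lung adenocarcinomas, and in mouse models its loss lets lung tumours progress to higher grades. ATM is the kinase that signals broken DNA to p53, and Cdkn2a encodes an inhibitor of the protein that degrades p53 as well as an inhibitor of cyclin-dependent kinases.

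All 3 groups of mice received the same kind of vector pool, per the labels, by delivery of lentivirus through the trachea, and the vectors also brought Cre recombinase. The groups were labelled KTC (n = 10), KPTC (n = 12) and KLTC (n = 13). As such strains are usually named, all of them share a fluorescent reporter (T) and a Cas9 allele (C), while KPTC mice also carry alleles that let Cre delete p53 and KLTC mice alleles that let it delete Lkb1. Thus the P53 sgRNA could remove p53 from KTC and KLTC tumours, whereas in KPTC tumours p53 is deleted in any case, and the P53 rows there are a second control. How many sgRNAs against P53 the pool held, and in what share of tumours they cut both alleles, is unknown here. The labels used here state no ages for the mice. The other 18 mice of the series, examined at 9 weeks, had received single vectors, and 0 P53 rows were listed in them.

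A tumour was counted as a barcode, a stretch of 21 bases in the vector, listed with its number of cells. In the 27438 distinct P53 barcodes of the pool mice, 6 positions held a base shared by at least 94.2% of barcodes and 15 were variable, with no base above 30.5%. The sequences below belong to the largest P53 tumours of KTC and of KPTC mice and are shown because each one names a tumour on which the largest sizes rest. Variable positions are in capitals.
KTC replicate 7, 3799147 cells: aaTCCCGttTGCTCaaGGAGC
KTC replicate 5, 3718983 cells: aaCATGTttGTGGTaaGCATG
KTC replicate 6, 3219941 cells: aaCTGTTttCGCATaaGCCGT
KPTC replicate 12, 62344206 cells: aaGCCGCttTTTTGaaAAGGA
KPTC replicate 8, 19116074 cells: aaAGCCGttGTATAaaCCTCA

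Numbers of P53 tumours per mouse set the depth of each value. KTC mice had 151 to 2900 P53 tumours (median 1628.5), KPTC mice 299 to 2666 (median 862.5) and KLTC mice 70 to 1436 (median 258). Inert tumours ranged from 482 to 7195, from 1069 to 8178 and from 171 to 4279 in the same order. Read counts are unknown, so errors are the spread over mice, and every tumour smaller than about 500 cells is absent from the table. The smallest listed size of a mouse lay between 500.6 and 982.2 cells.

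The same barcode could appear under P53 in several mice, which touches the results below. Of the KTC P53 tumours, 17.2% had their barcode listed in another mouse under the same target, against 44.6% of inert tumours. In KPTC mice the shares were 23.2% and 46.8%, and in KLTC mice 51.0% and 63.9%. A listing at least 10 times larger in another mouse was found for 3.61% of P53 and 6.98% of inert tumours in KTC, for 3.18% and 6.85% in KPTC, and for 26.4% of both in KLTC, with mice pooled. By mouse, the KLTC share ran from 5.44% to 57.2% for P53 (median 33.9%) and from 9.16% to 61.8% for inert tumours (median 28.7%). The part of these shared barcodes in the comparisons was not tested, but the values without them are given where they matter.

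The number of P53 tumours was the measure that separated the genotypes most clearly. There were 15908 P53 and 39940 inert tumours in KTC mice, or 0.398 P53 tumours per inert tumour. In KPTC mice, where the sgRNA has no p53 left to remove, there were 12472 and 39164, or 0.318, and in KLTC mice 4280 and 12177, or 0.351. Since the share of the P53 vector in the virus pool is not known, a ratio by itself says nothing on p53, and only the comparison of genotypes is read.

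By mouse, the ratio of P53 to inert tumours ranged from 0.313 to 0.451 in KTC (median 0.391), from 0.277 to 0.367 in KPTC (median 0.319) and from 0.314 to 0.409 in KLTC (median 0.367). The KTC and KPTC ranges overlapped, but 8 of 10 KTC mice lay above the highest KPTC mouse and 5 of 12 KPTC mice below the lowest KTC mouse. The lowest KTC value came from replicate 9, which also had the fewest tumours.

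The mean log2 ratio was −1.34 ± 0.15 (SD, n = 10) in KTC and −1.66 ± 0.12 (n = 12) in KPTC. The difference of KPTC minus KTC was −0.31 ± 0.06 (SE), so that relative to inert tumours KTC mice had 1.24-fold as many P53 tumours as KPTC mice (95% interval of the log2 difference −0.43 to −0.19). It passed a two-sided permutation test of the mouse labels with 100000 resamples (p = 7e-05, Benjamini-Hochberg adjusted p = 0.00077 over the 11 targets). P53 was the 1 target of 11 (9.09%) whose number differed between these genotypes at an adjusted p under 0.05, and also the 1 at an unadjusted p under 0.05. The other 10 targets had differences from −0.12 to 0.10, with ATM at −0.12 ± 0.10 (SE) and Cdkn2a at 0.10 ± 0.18, both with an adjusted p of 0.930. Whether P53 differed from each of them in this respect was not tested.

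**Figure D1:**
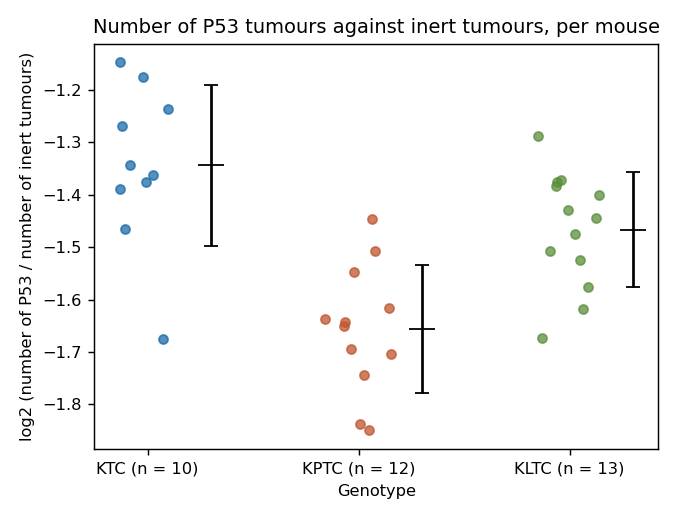
Log2 ratio of the number of P53 tumours to the number of inert tumours (vertical axis) by genotype (horizontal axis), with a point per mouse and a bar for the mean and SD. The means are −1.34 in KTC, −1.66 in KPTC and −1.47 in KLTC.

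**Figure D2:**
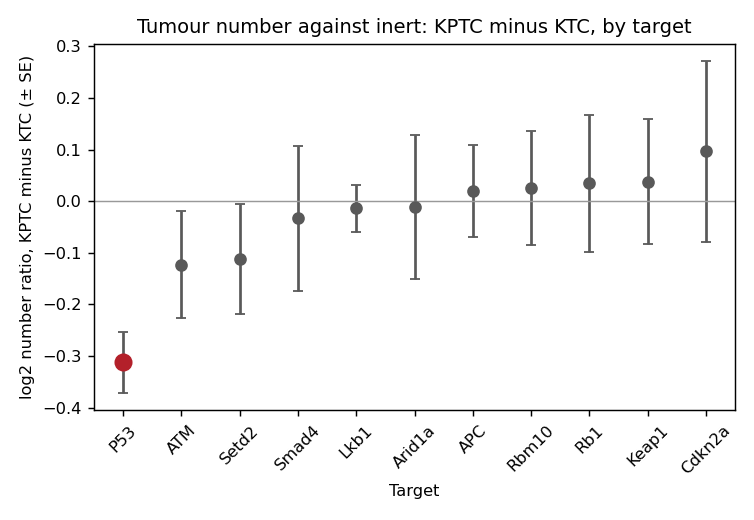
Difference between KPTC (n = 12) and KTC (n = 10) mice in the log2 ratio of tumour number to inert tumour number (vertical axis, ± SE), for each of the 11 targets (horizontal axis). P53, in red, lies at −0.31, and the other targets lie between −0.12 and 0.10.

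The direction of the number difference was kept with other references and filters, as was its side of the threshold in most of them. With the other 10 targets together as the reference in place of inert tumours, it was −0.30 (adjusted p = 0.0479, permutation test). Without any barcode that was listed in another mouse it was −0.36 (adjusted p = 0.00088), and among mice whose names begin with IW, 7 KPTC and 8 KTC, it was −0.34 (exact permutation, adjusted p = 0.00171). With tumours of at least 1000 and 1500 cells it was −0.33 and −0.35. With tumours of at least 5000 and 10000 cells it was −0.33 and −0.31, but it missed the threshold (adjusted p = 0.0761 and 0.222). At a minimum of 10000 cells 1110 P53 tumours were left in KTC mice and 666 in KPTC mice.

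KLTC mice lay between the others in P53 tumour number. The mean log2 ratio was −1.47 ± 0.11 (SD, n = 13), above that of KPTC by 0.19 ± 0.05 (SE, 95% interval 0.09 to 0.29, permutation test, adjusted p = 0.00495). For P53, 7 of 13 KLTC mice lay above the highest KPTC mouse. Among the other 10 targets this count ran from 0 (Arid1a) to 11 (Setd2). It was 7 for Rb1 as well, which did not differ in number (permutation test, adjusted p = 0.789). P53 was 1 of 3 targets of 11 (27.3%) that differed in number between KLTC and KPTC. The others were Setd2 (0.40 ± 0.10 SE, permutation test, adjusted p = 0.00495) and Lkb1 (0.14 ± 0.04, adjusted p = 0.0150). Lkb1 is deleted in KLTC tumours in any case. The P53 difference was 0.077 without tumours listed 10 times larger in another mouse and 0.13 against the other 10 targets, neither past the threshold (adjusted p = 0.412 and 0.474). Against KTC the KLTC value was lower by a log2 difference of −0.12 ± 0.06 (SE, 95% interval −0.23 to −0.01), which did not pass (adjusted p = 0.131), as for 0 of 11 targets (0%), with 3 at an unadjusted p under 0.05. Without KTC replicate 9 it was −0.16 and passed (adjusted p = 0.0308). All comparisons share mice between them, since each genotype enters 2.

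The size of P53 tumours was measured as the log-normal mean, which adds 0.5 times the variance of the log sizes to their mean before the exponential is taken. In KTC mice this mean was 1163 to 3789 cells for P53 tumours (median of the mice 2455) and 1179 to 3624 cells for inert tumours (median 2432), and the ranges lay almost on each other. The log2 ratio of P53 to inert in the same mouse ranged from −0.19 to 0.30 (median 0.07) and was above 0 in 6 of 10 mice. The mean effect was 0.06 ± 0.15 (SD, n = 10), a fold of 1.05, and did not pass the two-sided exact sign-flip test (p = 0.215, adjusted p = 0.295 over the 11 targets). The 95% interval of the effect was −0.04 to 0.17. The value moved with the minimum size, to 0.001 at 1000 cells and to 0.29 at 5000 cells, outside that interval (exact sign-flip p = 0.0234, adjusted p = 0.0645), and the interval covers the 500-cell minimum alone. In the same mice 5 of 11 targets (45.5%) passed, all of them as larger.

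KPTC mice gave the control value for the P53 vector. P53 tumours had log-normal means of 1258 to 4928 cells and inert tumours of 1360 to 5001 cells. The log2 ratio ranged from −0.19 to 0.09 (median −0.02), with 3 of 12 mice above 0. Its mean was −0.03 ± 0.08 (SD, n = 12, 95% interval −0.08 to 0.02) and did not pass (adjusted p = 0.238, exact sign-flip test), while 8 of 11 targets (72.7%) passed as larger. P53 had the lowest mean effect of the 11 targets here. The control was lower than inert tumours past the threshold with minimum sizes of 1000 cells (−0.11) and 1500 cells (−0.15), after the largest tumour per target and mouse was left out (−0.058) and without tumours listed 10 times larger in another mouse (−0.061), and it was higher for the median size (0.04, 10 of 12 mice above 0, exact sign-flip adjusted p = 0.0107). For the median size, the middle value of the 12 mice was 0.003, with 0.15, 0.16 and 0.15 in replicates 5, 7 and 8. The mean shifts above were thus measured with a vector whose target the genotype already deletes.

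In KLTC mice the spread was wider. The log-normal mean of P53 tumours ranged from 1322 to 126852 cells and that of inert tumours from 1824 to 70047 cells. The log2 ratio ranged from −2.24 to 1.38 (median 0.00), with 7 of 13 mice above 0. The mean was −0.18 ± 0.81 (SD, n = 13, 95% interval −0.67 to 0.28, adjusted p = 0.581, exact sign-flip test), and 1 of 11 targets (9.09%) passed. The lowest value belonged to replicate 7, which had the fewest P53 tumours (70), and the highest to replicate 10, with 249. Without replicate 7 the mean was −0.004, the least negative value obtained by leaving out a mouse, and without replicate 10 it was −0.31. Among the 7 mice of the name prefix IW the mean was −0.47, and among the 6 of the prefix ZR it was 0.17, and neither passed (adjusted p = 0.275 and 0.906).

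**Figure D3:**
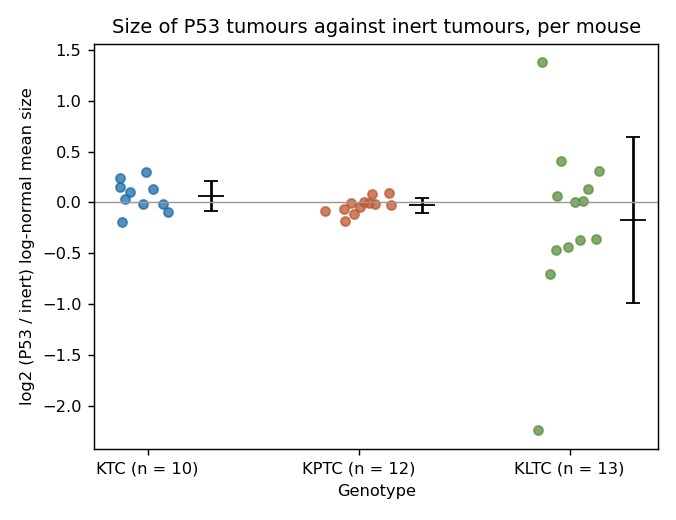
P53 size effect, the log2 ratio of log-normal means of P53 and inert tumours within a mouse (vertical axis), by genotype (horizontal axis), with a point per mouse and a bar for the mean and SD. The means are 0.06 in KTC, −0.03 in KPTC and −0.18 in KLTC, and KLTC mice range from −2.24 to 1.38.

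Between genotypes the size effect of P53 did not pass in any of the 3 comparisons. KPTC minus KTC was −0.09 ± 0.05 (SE, 95% interval −0.20 to 0.01, permutation test, adjusted p = 0.0999), while 6 of 11 targets (54.5%) differed. At a minimum of 5000 cells it was −0.44 (permutation test, adjusted p = 0.107) and for the 95th percentile −0.028 (adjusted p = 0.791). Without KTC replicate 10, whose value of −0.19 was the lowest of its group, the difference was −0.12 and passed (adjusted p = 0.0235). KLTC minus KTC was −0.24 ± 0.23 (95% interval −0.77 to 0.27, adjusted p = 0.576, 3 of 11 targets called, 27.3%), and −0.068 without KLTC replicate 7. Among mice of the prefix IW it was −0.58 and passed (exact permutation, adjusted p = 0.0168). KLTC minus KPTC was −0.15 ± 0.23 (95% interval −0.62 to 0.31, adjusted p = 0.632, 3 of 11 targets called, 27.3%).

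Percentiles show where in the range of sizes P53 and inert tumours differed. In KTC the log2 ratio was 0.08 ± 0.12 (SD) at the median, 0.05 ± 0.08 at the 60th, 0.04 ± 0.17 at the 70th, 0.04 ± 0.20 at the 80th and 0.08 ± 0.11 at the 90th percentile, with 7 or 8 of 10 mice above 0 at each. It was −0.05 ± 0.32 at the 95th percentile, with 5 of 10 mice above 0, and 0.18 ± 0.43 at the 99th, with 6 of 10. The median (adjusted p = 0.0931), the 95th (0.611) and the 99th percentile (0.773) did not pass the exact sign-flip test, and the others were not tested. The median passed for 0 of 11 targets (0%) in KTC, with 3 at an unadjusted p under 0.05.

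In KPTC the ratio was 0.04 ± 0.07 at the median, 0.01 ± 0.08 at the 80th, −0.08 ± 0.16 at the 95th and −0.19 ± 0.49 at the 99th percentile. The KPTC median passed, as given above, among 7 of 11 targets (63.6%). In KLTC the widest departure from 0 was at the 80th percentile, −0.44 ± 1.01, with 5 of 13 mice above 0, and the 99th lay at −0.08 ± 1.08. The KTC means lay between −0.05 and 0.18 and the KPTC means between −0.19 and 0.06 at the percentiles computed, and the SD grew from the 90th percentile upward in both.

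**Figure D4:**
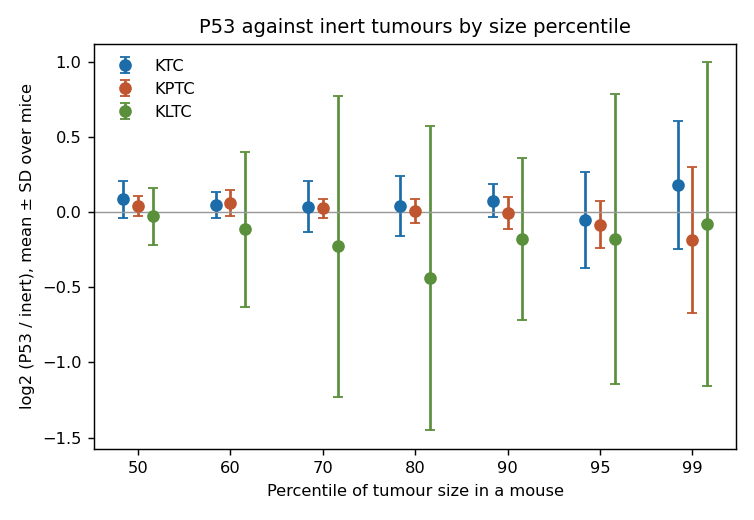
Log2 ratio of P53 to inert tumour size within a mouse at 7 percentiles of size (vertical axis against horizontal axis), as mean and SD over 10 KTC, 12 KPTC and 13 KLTC mice. At the 99th percentile the means are 0.18, −0.19 and −0.08, each smaller than its SD.

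The largest tumours were examined by the share of P53 tumours above the 99th percentile of inert tumours of the same mouse. In KTC mice this percentile lay between 21948 and 133647 cells, and 0.828% to 1.75% of P53 tumours exceeded it (median 1.15%). The excess over the inert share was 0.188 ± 0.255 percentage points (SD, n = 10), above 0 in 8 of 10 mice. It had an exact sign-flip p of 0.0313 but an adjusted p of 0.115 over the 11 targets, of which 2 (18.2%) passed. Without replicate 6, whose value was the lowest, it was 0.229 and passed (adjusted p = 0.0286). In KPTC the excess was −0.000989 ± 0.304 points (6 of 12 mice above 0, adjusted p = 0.991, 8 of 11 targets called, 72.7%).

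In KLTC the inert percentile ranged from 54008 to 1904453 cells, and the excess was 0.295 ± 1.56 points (6 of 13 mice above 0, adjusted p = 0.8288), with 0 of 11 targets (0%) passing the exact sign-flip test and 1 at an unadjusted p under 0.05. It turned to −0.0655 points without replicate 10, in which 5.62% of P53 tumours exceeded the inert percentile.

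Tumours were also counted over rising size minimums, with no test of a trend over size. From 500 to 10000 cells the ratio of P53 to inert tumours, summed over mice, stayed between 0.398 and 0.423 in KTC and between 0.303 and 0.331 in KPTC. At 100000 cells there were 138 P53 and 307 inert tumours in KTC (0.450) against 71 and 275 in KPTC (0.258). At 200000 cells the ratios were 0.491 and 0.216, and at 500000 cells 0.674 and 0.294. At 1000000 cells KTC mice had 21 P53 and 12 inert tumours, a ratio of 1.75, KPTC mice 12 and 37 (0.324) and KLTC mice 26 and 51 (0.510).

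**Figure D5:**
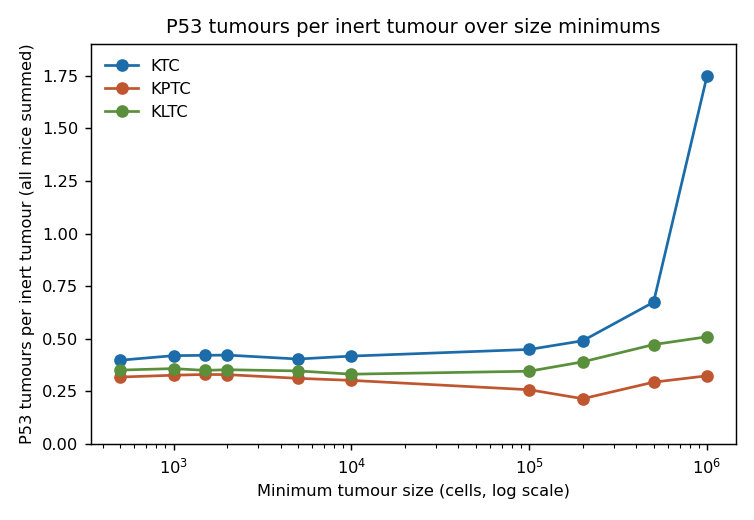
P53 tumours per inert tumour, summed over the mice of a genotype (vertical axis), against the minimum tumour size in cells (horizontal axis, log scale). The KTC ratio is 0.398 at 500 cells and 1.75 at 1000000 cells, where it rests on 21 P53 and 12 inert tumours, and the KPTC ratio stays between 0.216 and 0.331.

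The tumours of at least 1000000 cells were few, and the measure was chosen after the data were seen. In KTC they made up 0.132% of P53 and 0.0300% of inert tumours. Inert tumours had the lowest share of all there, as the 11 targets ranged from 0.0344% to 0.343%, with Rbm10 at 0.120% and Keap1 at 0.115% beside P53. By mouse, 7 of 10 KTC mice had such a P53 tumour and 6 had such an inert tumour, with 6 P53 against 3 inert in replicate 7, 4 against 2 in replicate 5, 4 against 3 in replicate 6 and 3 against 0 in replicate 2. The P53 share exceeded the inert share in 7 of 10 KTC mice and was below it in 0, as the remaining 3 mice had no tumour of that size of either kind. The mean excess was 0.0800 ± 0.0883 percentage points (SD, n = 10), with an exact sign-flip p of 0.0156, the smallest that 7 mice with a difference can give, and an adjusted p of 0.0688 that missed the threshold. In KTC 0 of 11 targets (0%) passed this exact sign-flip test at that size and 5 had an unadjusted p under 0.05. Leaving out each mouse gave 0.0616 to 0.0888 points (adjusted p = 0.0688 to 0.138).

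In KPTC the same excess was −0.00185 ± 0.0783 points, above 0 in 4 and below 0 in 7 of 12 mice (adjusted p = 0.979, exact sign-flip test, 0 of 11 targets called, 0 at an unadjusted p under 0.05). The KPTC minus KTC difference was −0.0818 ± 0.0359 points (SE) and missed the threshold (permutation p = 0.0315, adjusted p = 0.256). In KLTC the excess was 0.141 ± 0.737 points, above 0 in 7 and below 0 in 4 of 13 mice (adjusted p = 0.797), and 0.0032 without replicate 12. In KLTC 0 of 11 targets (0%) passed the exact sign-flip test at that size, with 1 at an unadjusted p under 0.05.

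At lower minimums P53 passed in none of the 3 genotypes by the exact sign-flip test. At 100000 cells the KTC excess was 0.0684 ± 0.252 points (6 of 10 mice above 0, adjusted p = 0.642, 2 of 11 targets called, 18.2%), the KPTC value −0.125 ± 0.205 (3 of 12, adjusted p = 0.0936, 3 of 11, 27.3%) and the KLTC value −0.546 ± 3.03 (3 of 13, adjusted p = 0.574, 1 of 11, 9.09%). At 10000 cells the KTC excess was 0.0215 ± 0.993 points (5 of 10, adjusted p = 0.939, 4 of 11, 36.4%) and the KPTC value −0.250 ± 0.529 (4 of 12, adjusted p = 0.144, 7 of 11, 63.6%). In KLTC it was −2.32 ± 4.62 points (above 0 in 5 of 13 mice), with an exact sign-flip p of 0.0488 that became 0.179 after adjustment (0 of 11 called, 0%, with 3 at an unadjusted p under 0.05). The KLTC values ranged from −15.9 to 2.23 points, and the mean without the lowest mouse was not computed.

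Nearly every P53 or inert tumour of at least 1000000 cells had its barcode listed in another mouse. This held for all 21 KTC P53 tumours, at 0.0734% to 1.44% of their own size (median 0.145%), and for all 12 inert ones (median 0.133%). All 12 KPTC and all 26 KLTC P53 tumours shared it as well, with medians of 0.127% and 0.293%. No P53 or inert barcode reached 1000000 cells in 2 mice. The largest listing of the KTC barcode aaTCCCGttTGCTCaaGGAGC in another mouse was 19943 cells.

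The single largest P53 tumour of a mouse varied over a wide range. It was 34553 to 3799147 cells in KTC (median 1982494) and exceeded the largest inert tumour in 5 of 10 mice, although inert tumours were more numerous. In KPTC it was 26200 to 62344206 cells (median 949097) and exceeded the largest inert tumour in 3 of 12 mice. In KLTC it was 19717 to 110797845 cells (median 2168362) and did so in 5 of 13. A P53 tumour was the largest of all targets in 0 of 10 KTC, 1 of 12 KPTC and 3 of 13 KLTC mice. Since a maximum rises with the number of tumours, these values carry no test.

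The share of all listed cells gives the burden of P53 tumours. In KTC mice P53 tumours were 9.85% to 11.9% of the tumours (median 10.8%) and held 6.75% to 12.5% of the cells (median 8.56%), with the share of cells above the share of tumours in 3 of 10 mice. In KPTC mice they were 8.09% to 11.996% of tumours and held 2.83% to 15.2% of cells (median 5.47%), above in 2 of 12. In KLTC mice they were 8.15% to 14.8% of tumours and held 5.001% to 48.6% of cells (median 9.71%), above in 6 of 13. The share in KLTC replicate 6 rested on 1 tumour of 40799630 cells, 89.3% of its P53 cells. The highest KPTC share, in replicate 12, rested on 1 tumour of 62344206 cells, 85.1% of its P53 cells. In KPTC replicate 8 the largest tumour held 90.9%.

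The mean number of cells per P53 tumour, total cells over number of tumours, was 1.25-fold that of inert tumours in KTC (log2 0.32 ± 0.47 SD, n = 10, above 0 in 6 of 10 mice). This did not pass (exact sign-flip p = 0.0605, adjusted p = 0.172, 95% interval −0.02 to 0.67, 2 of 11 targets called, 18.2%). The same ratio was −0.09 ± 1.24 in KPTC (adjusted p = 0.910) and 0.29 ± 1.34 in KLTC (adjusted p = 0.722).

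Among the other genes of the p53 pathway, a list that held ATM and Cdkn2a, 0 of 2 passed the test of size in KTC, with effects of 0.01 ± 0.13 and 0.11 ± 0.17 (exact sign-flip, adjusted p = 0.871 and 0.150), where 5 of all 11 targets (45.5%) passed. In KPTC 2 of 2 rose, ATM by 0.14 ± 0.14 (adjusted p = 0.00767) and Cdkn2a by 0.19 ± 0.20 (adjusted p = 0.0121), where 8 of all 11 targets (72.7%) passed, so the count says nothing particular to these genes. In KLTC 0 of 2 passed, at −0.03 ± 0.59 and 0.34 ± 0.56 (exact sign-flip, adjusted p = 0.836 and 0.196), where 1 of all 11 targets (9.09%) passed.

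Set against P53 in the same mice, with inert tumours cancelling, ATM and Cdkn2a differed from it in KPTC only among the genotypes tested, and this difference was not compared between genotypes. P53 was lower than ATM there by a log2 difference of −0.17 ± 0.14 (SD, lower in 12 of 12 mice) and lower than Cdkn2a by −0.22 ± 0.18 (11 of 12), with adjusted p of 0.000977 and 0.00488 by exact sign-flip test over the 10 other targets. Neither KPTC call was kept at a minimum of 5000 cells, for the median or for the arithmetic mean, where the differences were −0.12, −0.05 and −0.03 for ATM and −0.62, −0.0087 and −0.68 for Cdkn2a, and the Cdkn2a call was also lost among mice of the prefix IW (−0.20, adjusted p = 0.0781). In KTC the differences were 0.06 ± 0.26 and −0.04 ± 0.20 (adjusted p = 0.579 for both). In KLTC they were −0.14 ± 0.80 and −0.51 ± 1.13 (adjusted p = 0.599 and 0.200). Without KLTC replicate 10 the second was −0.69 and passed (adjusted p = 0.0456).

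Of all 10 other targets, 8 (80%) lay above P53 in KPTC, those that did not pass being Keap1 (P53 lower by −0.08 ± 0.21) and Rbm10 (−0.13 ± 0.21). Keap1 holds the antioxidant response in check and Rbm10 regulates splicing. In KTC 3 of 10 (30%) lay above P53, namely Setd2, a histone methyltransferase (−1.15 ± 0.49, P53 lower in 10 of 10 mice), Lkb1, a kinase upstream of AMPK (−0.94 ± 0.26, 10 of 10), and Rbm10 (−0.20 ± 0.19, 9 of 10), with adjusted p of 0.00977, 0.00977 and 0.0195 (exact sign-flip). Without KTC replicate 9 the count was 5. In KLTC 0 of 10 (0%) passed and 1 had an unadjusted p under 0.05, and the count was 3 without replicate 10 and 2 without replicate 12.

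The targets whose mean size effects over the 3 genotypes lay nearest to those of P53, by Euclidean distance of the 3 log2 means, were ATM (0.23), Rbm10 (0.38) and Keap1 (0.43). Cdkn2a was at 0.56 and Setd2, the most distant, at 1.39. These distances share the inert tumours of each mouse and describe the means alone. They were not scaled by the spread over mice, which was widest in KLTC. A near target could still differ from P53, as ATM did in KPTC and Rbm10 in KTC.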

How the data were processed

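Barcodes were amplified by PCR from DNA of whole lungs and sequenced, 1 library per mouse, per the labels' protocols. The deposited table of the authors gives a size in cells for each mouse, target and barcode. The standard behind that scale, the grouping of reads and the size minimum are not stated by labels or file. Mice were grouped by the labelled genotype, and the mouse was the replicate. Tumours of at least 500 cells were used, with at least 10 per target and mouse. Effects were log2 ratios to inert tumours of the same mouse. Means over mice were tested by two-sided exact sign-flip tests, and genotypes by two-sided permutation of mouse labels with 100000 resamples (exact where a group had fewer than 10 mice), with Benjamini-Hochberg adjustment over the 11 targets (the 10 others where P53 was set against them) and a threshold of 0.05. Intervals at 95% invert these tests for P53 alone, without the adjustment, so an interval can exclude 0 where the adjusted p missed the threshold. Targets measured in 1 mouse share the same inert tumours. All 11 targets matched a symbol in RefSeq's gene table, P53 as Trp53 and Lkb1 as Stk11. The 2 rows that repeat a mouse, target and barcode were kept. Named genes were P53, ATM, Cdkn2a, the 3 targets nearest to P53 in mean effects, and targets that differed from P53. The members and lists were chosen with earlier results of these data known. The procedure was tested on simulated data. Alternatives covered size minimums, size statistics, shared or near-identical barcodes, name prefixes and leaving out each mouse. Python 3.11.15, NumPy 2.4.6 and pandas 2.3.3 were used.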

Additional observations from a re-analysis of the deposited data

Results flagged for a closer look

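The number of P53 tumours relative to inert tumours differed between KPTC and KTC mice by a log2 difference of −0.31, and between KLTC and KPTC mice by 0.19, each by a permutation test of the difference itself. Both comparisons use the same 12 KPTC mice. In the 10 KTC mice, no mouse stood apart from its group in the 7 per-mouse measures of P53 that were examined for outlying values, and the larger groups were not examined in this way.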

How the results depend on the processing

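The number difference between KPTC and KTC kept its direction in 10 of 10 alternatives and its side of the threshold in 8, and missed it at minimums of 5000 (−0.33) and 10000 cells (−0.31), where fewer tumours were left. KLTC minus KTC in number passed at 1500 cells (−0.24) and without barcodes listed in another mouse (−0.30). KLTC minus KPTC in number missed the threshold at 1500 (0.11) and 5000 cells (0.13), without tumours listed 10 times larger elsewhere (0.077), against the other 10 targets (0.13) and without barcodes listed elsewhere (0.062), and it turned to −0.0069 at 10000 cells.

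The size effect turned in KTC at 1500 cells (−0.016) and for the 95th percentile (−0.054), in KPTC for the median (0.040), and in KLTC at 5000 cells (0.18), for the prefix ZR (0.17) and for the arithmetic mean (0.29). In KPTC it passed as lower at 1000 (−0.11) and 1500 cells (−0.15), without tumours listed 10 times larger elsewhere (−0.061) and without the largest tumours (−0.058). KLTC minus KPTC turned at 1500 (0.025) and 5000 cells (0.32), for the 99th percentile (0.11) and for the arithmetic mean (0.38), and KLTC minus KTC passed for the prefix IW (−0.58). The excess above the inert 99th percentile turned in KTC for the 95th (−0.189), in KLTC for the 95th (−0.113) and the prefix IW (−0.399), and in KPTC for mice with no prefix (0.0142), and passed as lower in KPTC at 1000 (−0.408) and 1500 cells (−0.413). The P53 excess at 1000000 cells turned for the prefix IW in KPTC (0.000575) and KLTC (−0.192).

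The count of other targets that differed from P53 was 5 for the prefix IW and 0 for the median in KTC, 3 at 5000 cells, 5 for the prefix IW, 0 with no prefix, 2 for the median and 0 for the arithmetic mean in KPTC, and 2 without tumours listed 10 times larger elsewhere and 1 each without the largest tumours, with adjustment over all genotypes and without barcodes 1 base from a larger one in KLTC. P53 minus ATM turned in KTC without tumours listed 10 times larger elsewhere (−0.0076), and in KLTC at 1000 (0.0061), 1500 (0.060) and 5000 cells (0.37), for the prefix ZR (0.24), the 99th percentile (0.33) and the arithmetic mean (0.50). P53 minus Cdkn2a turned in KTC at 5000 cells (0.27), for the prefix IW (0.012), the median (0.091), the 99th percentile (0.14) and the arithmetic mean (0.11) and without the largest tumours (0.041), and in KLTC for the prefix ZR (0.064), the 99th percentile (0.30) and the arithmetic mean (0.25). Leaving out each mouse gave −0.26 to −0.0066 for P53 minus ATM in KLTC and −0.068 to −0.0020 for P53 minus Cdkn2a in KTC. The size effect also moved to 0.29 in KTC and −0.15 in KPTC at 5000 cells with no call, and their difference to −0.44. The causes of these changes were not tested. Leaving out each mouse moved the excess above the inert 99th percentile within 0.127 to 0.229 (KTC), −0.0613 to 0.0376 (KPTC) and −0.0655 to 0.417 (KLTC) and the excess at 1000000 cells within −0.0166 to 0.0058 (KPTC) and 0.0032 to 0.25 (KLTC). It gave 3 to 5, 8 to 9 and 0 to 3 differing targets in that order, size differences of −0.12 to −0.068 (KPTC minus KTC), −0.37 to −0.068 (KLTC minus KTC) and −0.28 to 0.025 (KLTC minus KPTC), and number differences of −0.35 to −0.29, −0.16 to −0.10 and 0.17 to 0.21 for KPTC minus KTC, KLTC minus KTC and KLTC minus KPTC. No paired analysis was possible because no label pairs a mouse of 1 genotype with a mouse of another, and replicate numbers here only name mice. KLTC values rest on as few as 70 P53 tumours in a mouse, and the 5 KPTC mice with no prefix cannot pass the sign-flip test, since their smallest p is 0.0625. The 2 KTC mice of prefix MW were too few for a value of their own.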
